A study of Mus musculus with 6 samples.

Results

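The constitutive proteasome subunits were measured here as the genes with the symbols Psma1 to Psma8, Psmb1 to Psmb7, Psmc1 to Psmc6 and Psmd1 to Psmd14. They were found by gene symbol in the array annotation, keeping transcript clusters (the array's units of 1 transcript or gene) that carry exactly 1 symbol, and the brightest such cluster of each gene by its mean over the 6 arrays. Of the 35 symbols, 34 were found among 22180 genes, 14 of them in the Psma and Psmb families and 20 in the Psmc and Psmd families. Psma4 was left out because both of its clusters also carry a second symbol. The rule that picks the genes uses symbols, though the gene family was itself picked with earlier results of these data known, and mean brightness decided between clusters for Psma5 and Psmc2, which have 2 clusters each.

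The cells were RET, a mouse melanoma line, labelled as C57BL\6 in strain. The 3 control cultures carried a non-targeting shRNA, and their titles also carry the word GFP. The other 3 cultures carried Angpt2 shRNA-1, an shRNA against angiopoietin 2, and are called silenced cultures below. All were grown in high-glucose medium with serum, and RNA was taken 24 h after equal numbers of cells were seeded; the design text describes 3 independent repeats per group. Only 1 shRNA against Angpt2 enters the comparison, so an effect of its sequence cannot be told apart from loss of Angpt2. Each culture was hybridised to its own Affymetrix Mouse Gene 2.0 ST array, and values are normalized intensities on a linear scale.

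The targeted gene, Angpt2, had intensities of 195, 372 and 326 in the control cultures and 100.2, 122 and 122 in the silenced ones. The groups did not overlap, and the log2 fold change was -1.33 (SE 0.21), with a limma adjusted p of 1.00, or 0.046 with the replicate number as a block; without control 1 it was -1.61, with an adjusted p of 0.0116. The silenced values lie within the range of marker genes of other cell types (45.2 to 175), so they cannot be told from background and this fold does not measure the RNA left after silencing. Arrays of a group correlated at 0.978 to 0.990, and the array medians lay between 74.6 and 76.3. Melanocyte markers were high on every array, with Tyrp1 at 8904 to 9651, Dct at 8244 to 8953 and Pmel at 6546 to 7410, whereas Ednrb (63.0 to 87.9) and Kit (84.3 to 109.8) were dim. Mitf, the regulator of the melanocyte lineage, had 2908, 2969.8 and 2681 in the controls and 2414, 2537 and 2502 in the silenced cultures, without overlap, at a log2 fold change of -0.20 (SE 0.08, unadjusted limma p = 0.0394, exact permutation p = 0.1). Of the 10 melanocyte markers 8 had negative differences, 7 after median centring and 5 after quantile normalization; their part in the proteasome values was not tested. Markers of leukocytes, endothelium, fibroblasts and keratinocytes lay between 45.2 and 175. The files carry no detection calls, so an intensity near the median gene (87.7) cannot be told from background. In these bulk samples, fewer cells expressing a gene and less RNA per cell cannot be told apart.

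The proteasome degrades proteins that carry ubiquitin chains. Its core particle is a barrel of stacked alpha and beta rings whose catalytic beta subunits cut the substrate inside, and its regulatory cap holds a base with a ring of ATPases that unfold the substrate and a lid that removes the ubiquitin. Most of the genes encode subunits of this complex, but Psma8 belongs to the testis proteasome, and Psmd5, Psmd9 and Psmd10 encode assembly chaperones. Proteasome subunit genes are known to be induced together by the transcription factor Nfe2l1 when proteasome activity falls. Tumour cells depend on the proteasome for the turnover of damaged and short-lived proteins.

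Promoter sequence was examined because members of a complex are often regulated together. The 250 bases before each start were read from RefSeq on build GRCm38.p6 for 27 of the 34 genes, in 29 windows since Psma6 and Psmc2 have 2 starts each. Psma8, Psmb1, Psmb2, Psmb7, Psmc3, Psmd3 and Psmd7 are not shown. The motifs searched, on both strands, were TGACNNNGC, the core of the antioxidant response element read by Nfe2l1 and its relatives, CCAAT, the box read by NF-Y, and CCGGAAG, a site of the ETS type. The letters of these motifs do not overlap one another in the windows printed. The windows below are those of Psma2 and Psma6, whose differences between groups had opposite signs within the alpha ring, of the catalytic gene Psmb5 and the lid gene Psmd12, which hold the antioxidant response element core, and of the cap genes Psmc1 and Psmd6, which were lowest on control 2 and hold the ETS-type motif. Each is printed 5′ to 3′ on the strand of the gene, with matches to any of the motifs in capitals.
Psma2 (chr13:14612992-14613241, plus strand): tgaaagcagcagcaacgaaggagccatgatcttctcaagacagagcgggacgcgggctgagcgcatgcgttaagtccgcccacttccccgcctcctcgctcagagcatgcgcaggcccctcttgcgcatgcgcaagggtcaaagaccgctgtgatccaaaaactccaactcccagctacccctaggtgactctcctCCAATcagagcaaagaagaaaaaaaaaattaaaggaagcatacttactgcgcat
Psma6 first start (chr12:55383972-55384221, plus strand): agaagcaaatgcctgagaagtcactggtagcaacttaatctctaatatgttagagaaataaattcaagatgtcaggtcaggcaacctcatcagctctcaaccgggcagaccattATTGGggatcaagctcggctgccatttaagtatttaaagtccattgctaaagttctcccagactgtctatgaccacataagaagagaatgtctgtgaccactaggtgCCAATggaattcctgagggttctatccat
Psma6 second start (chr12:55398575-55398824, plus strand): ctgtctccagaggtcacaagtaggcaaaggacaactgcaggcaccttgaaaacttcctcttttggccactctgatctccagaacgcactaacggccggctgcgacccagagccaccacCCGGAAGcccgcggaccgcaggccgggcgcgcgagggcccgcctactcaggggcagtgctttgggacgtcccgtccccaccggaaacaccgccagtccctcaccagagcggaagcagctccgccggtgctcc
Psmb5 (chr14:54617996-54618245, minus strand): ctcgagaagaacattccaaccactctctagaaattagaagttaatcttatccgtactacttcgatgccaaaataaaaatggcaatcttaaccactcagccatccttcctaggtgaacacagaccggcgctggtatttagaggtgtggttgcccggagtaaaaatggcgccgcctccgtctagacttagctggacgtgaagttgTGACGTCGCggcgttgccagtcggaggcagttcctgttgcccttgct
Psmd12 (chr11:107479278-107479527, plus strand): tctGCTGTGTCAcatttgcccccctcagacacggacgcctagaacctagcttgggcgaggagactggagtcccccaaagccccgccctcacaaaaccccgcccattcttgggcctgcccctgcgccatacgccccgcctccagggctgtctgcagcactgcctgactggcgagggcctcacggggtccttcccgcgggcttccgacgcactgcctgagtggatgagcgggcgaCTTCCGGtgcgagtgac
Psmc1 (chr12:100109952-100110201, plus strand): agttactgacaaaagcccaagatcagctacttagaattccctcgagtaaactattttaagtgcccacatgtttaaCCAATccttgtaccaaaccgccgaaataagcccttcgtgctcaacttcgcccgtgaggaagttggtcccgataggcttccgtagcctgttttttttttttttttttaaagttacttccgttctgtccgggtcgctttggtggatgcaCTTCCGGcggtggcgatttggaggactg
Psmd6 (chr14:14120946-14121195, minus strand): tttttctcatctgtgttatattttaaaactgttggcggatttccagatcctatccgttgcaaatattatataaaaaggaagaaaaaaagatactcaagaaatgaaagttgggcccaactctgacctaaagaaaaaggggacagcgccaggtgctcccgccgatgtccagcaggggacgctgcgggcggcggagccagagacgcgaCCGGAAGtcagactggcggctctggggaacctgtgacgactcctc

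The ETS-type motif was found in 9 of the 27 genes (33.3%), against 7.83% of 27025 genes with a promoter in the same table. The 27025 genes were taken whatever their level on the arrays, whereas most proteasome genes are bright. Shares among bright genes were not computed for any of the motifs. Of the 9, 8 belong to the cap (Psmc1, Psmc2, Psmc6, Psmd2, Psmd4, Psmd6, Psmd11 and Psmd12, of 17 cap genes with a window) and 1 to the core (Psma6, at its second start, of 10 core genes). Of the cap genes with the motif, Psmc1, Psmc2, Psmc6, Psmd4 and Psmd6 were lowest on control 2, and Psmd2, Psmd11 and Psmd12 were not. Of cap genes whose windows lack it, Psmc5, Psmd8, Psmd10, Psmd13 and Psmd14 were lowest there, and Psmc4, Psmd1, Psmd5 and Psmd9 were not. CCAAT was found in 11 of the 27 genes (40.7%), near the 37.5% of all genes, with 6 of 10 core genes and 5 of 17 cap genes. The antioxidant response element core was found in Psmb5, Psmb6, Psmc6, Psmd9 and Psmd12, which is 5 of 27 genes (18.5%) against 11.5% of all genes. In Psmb5 it lies 39 to 47 bases before the start. These are matches of letters, given as a description.

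No proteasome gene differed between silenced and control cultures after adjustment over all genes. The limma adjusted p was 1.00 for each of the 34 genes, and no gene of the 22180 passed the adjusted threshold of 0.05 (percent called 0). With the replicate number as a block, 2 of all genes passed (0.00902%) and none of the 34. At an unadjusted limma p under 0.05, 1 proteasome gene was higher (Psma2) and 2 were lower (Psma5 and Psma6), together 8.82% of the 34 against 3.76% of all genes tested. Among the 32 proteasome genes above the median level, which leaves out Psma5 and Psma8, they were 2 (6.25%) against 3.91% of all genes above that level, and 1 (Psma6) when only genes above that level were fitted. Higher genes made up 1.52% of all genes and lower genes 2.24%. The groups did not overlap for Psma2 and Psma6, 5.88% of the 34 genes against 9.01% of all genes, and 6.25% of the 32 against 7.75% of genes above the median level; over all genes 3.53% were higher without overlap and 5.48% lower. The 3 genes all belong to the alpha ring, the outer rings of the core that form its gate. Of these, Psma5 was dim (61.6 to 84.8) and cannot be told from background, and Psma2 and Psma6 differed in opposite directions.

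**Figure D1:**
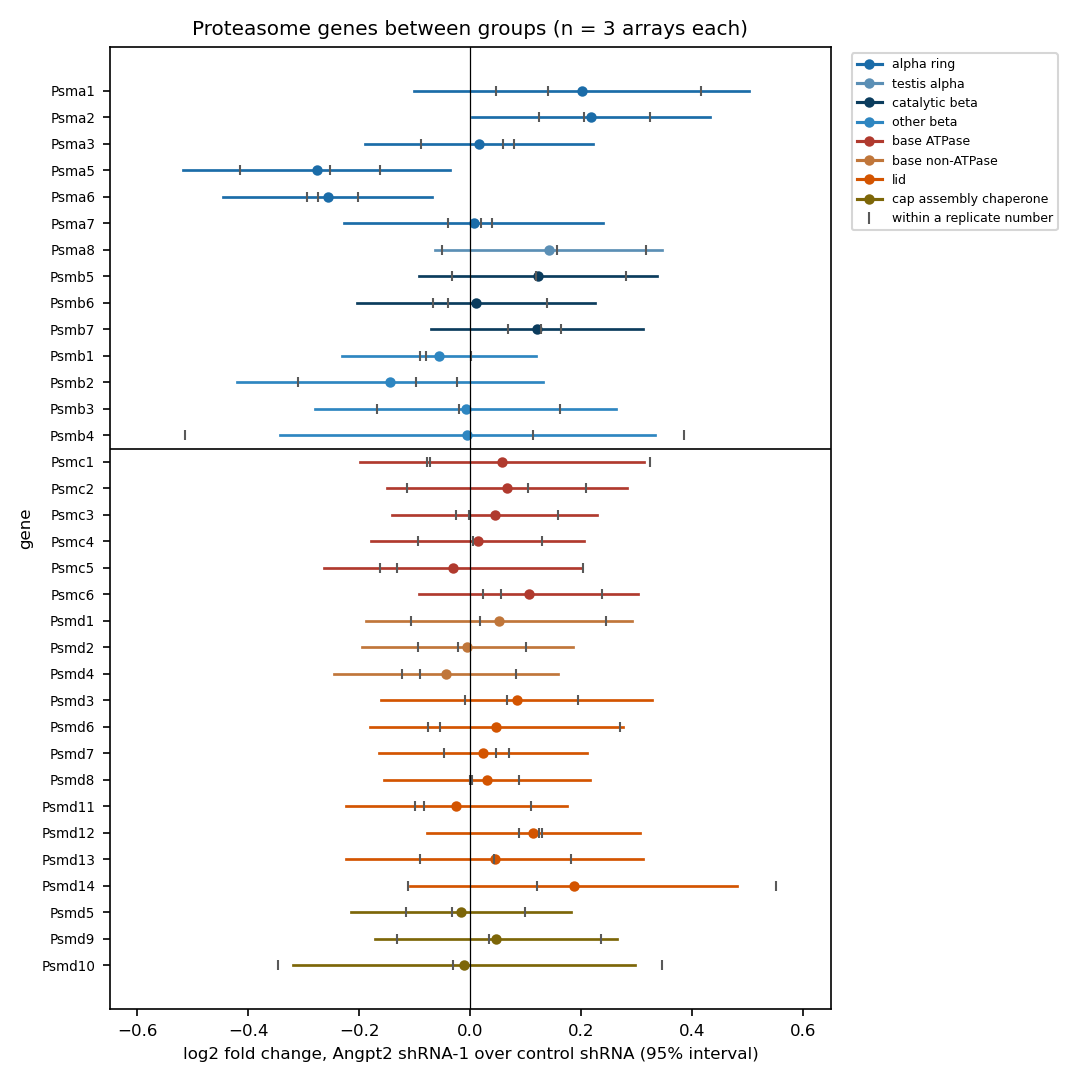
Log2 fold change of each proteasome gene, silenced over control cultures (x axis), with its 95% interval as a line and the difference within each replicate number as a tick, coloured by role; genes are on the y axis with the core above the line and the cap below (n = 3 arrays per group). The Psma2, Psma5 and Psma6 intervals lie off 0, the first above it and the other two below; the widest differences between replicate numbers are those of Psmb4, Psmd10 and Psmd14.

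Psma2 and Psma6 encode alpha subunits that sit next to each other in the ring. Psma2 had intensities of 917, 857 and 1040 on the control arrays and 1057, 1072 and 1133 on the silenced arrays. All silenced arrays were above the highest control array, which was control 3. The log2 fold change was 0.22 (SE 0.10, 95% interval 0.0023 to 0.43, 1.16-fold), with an unadjusted limma p of 0.0481 and an exact two-sided permutation p of 0.1, the smallest that 3 against 3 arrays can give. It was positive within all 3 replicate numbers, at 0.21, 0.32 and 0.12, and between 0.15 and 0.29 when any 1 array was left out. Without control 2 the unadjusted limma p was 0.149, and with array weights it was 0.0835.

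Psma6 had intensities of 739, 735 and 771 on the control arrays and 602, 608 and 670 on the silenced arrays. All silenced arrays were below the lowest control array, control 2. The log2 fold change was -0.26 (SE 0.08, 1.20-fold lower), with an unadjusted limma p of 0.0131 and an exact permutation p of 0.1. The difference was negative within all 3 replicate numbers, at -0.29, -0.27 and -0.20, and lay between -0.31 and -0.23 when any 1 array was left out. Without the first silenced array the unadjusted limma p was 0.0524. The control arrays of Psma6 spread little (SD 0.04 in log2), whereas those of Psma2 spread more (SD 0.14).

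Psma5, another alpha subunit, had intensities of 68.9, 83.8 and 84.8 on the control arrays and 61.6, 70.3 and 63.6 on the silenced arrays. These lie below the median gene, so the log2 fold change of -0.28 (SE 0.11, unadjusted limma p = 0.0283, exact permutation p = 0.2) concerns a signal that cannot be told from background. The groups overlapped, since silenced 2 was above control 1. The other Psma5 cluster was equally dim (54.4 to 74.1) and gave a log2 fold change of -0.23, with an unadjusted limma p of 0.0541.

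Among the remaining alpha genes, Psma1 had intensities of 1180, 896 and 1265 in the control cultures and 1219, 1196 and 1393 in the silenced ones. Control 2 stood below the other 5 arrays, and the log2 fold change of 0.20 (SE 0.13) was 0.05 without it. Psma3 and Psma7 differed by 0.02 (SE 0.09) and 0.01 (SE 0.10). Psma8, which encodes the alpha subunit of the testis proteasome, was dim in every culture, with 54.6, 61.4 and 58.2 in the controls and 68.1, 59.3 and 64.8 in the silenced ones.

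**Figure D2:**
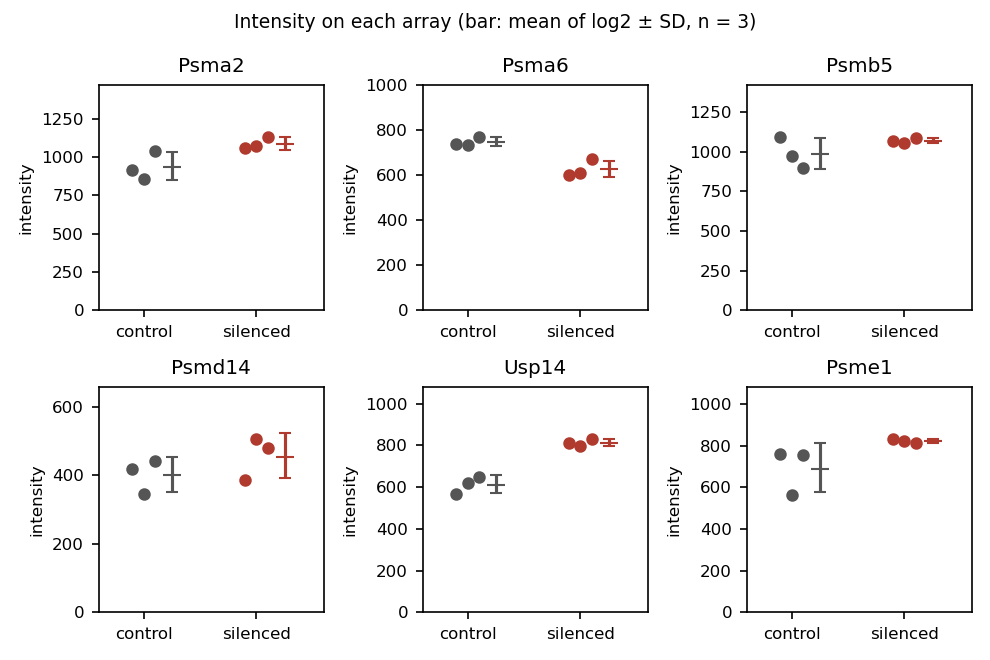
Intensity (y axis, linear, from 0) on each array of the control and silenced groups (x axis) for 4 proteasome genes and the associated genes Usp14 and Psme1; the bar beside the points is the mean of the log2 values with its SD (n = 3). The groups do not overlap for Psma2, Psma6, Usp14 and Psme1, and do for Psmb5 and Psmd14.

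The 3 catalytic beta genes had positive differences under each scaling, and none passed the test. Within replicate numbers 1, 2 and 3, the count of positive differences was 1, 3 and 2 of 3. Psmb5, which encodes the chymotrypsin-like subunit, had intensities of 1094, 970 and 894 in the control cultures and 1069, 1054 and 1085 in the silenced cultures. Its control arrays spread widely and its silenced arrays hardly at all (SD 0.15 and 0.02 in log2), and control 1 was the highest of all 6. The log2 fold change was 0.12 (SE 0.09). Psmb7, the trypsin-like subunit, had 1602, 1737 and 1804 in the controls and 1794, 1897 and 1891 in the silenced cultures. Only silenced 1 fell within the control range, and the log2 fold change was 0.12 (SE 0.08). Psmb6, the caspase-like subunit, differed by 0.01 (SE 0.10), with a range of 887 to 1058 over all arrays.

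The structural beta genes all had negative differences, none past the test, and of these Psmb3 and Psmb4 turned positive when arrays were centred on their medians or quantile-normalized. Psmb2 had intensities of 767, 786 and 866 in the controls and 618, 734 and 852 in the silenced cultures. Within each group it was highest in replicate 3, and the log2 fold change was -0.14 (SE 0.12). Psmb4 had 428, 438 and 590 in the controls and 559, 474 and 414 in the silenced cultures. Its highest control was replicate 3 and its highest silenced array was replicate 1, so the differences within replicate numbers were 0.38, 0.11 and -0.51 and the log2 fold change was -0.01 (SE 0.15). Psmb1 was the steadiest core gene, with 1492, 1421 and 1477 in the controls and 1412, 1421 and 1386 in the silenced cultures, and a log2 fold change of -0.06 (SE 0.08). Psmb3 was close to the median gene, at 80.9 to 106.3.

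In the cap, no gene had an unadjusted limma p under 0.05 and the groups overlapped for all 20. Psmc1 to Psmc6 encode the ATPases of the base. Psmc6 had intensities of 1731, 1563 and 1799 in the controls and 1759, 1844 and 1869 in the silenced cultures. The 2 highest arrays were silenced 2 and 3, and the log2 fold change was 0.11 (SE 0.09), the largest among the ATPases. Psmc2 was next at 0.07 (SE 0.10), with 1134, 995 and 1194 in the controls and 1218, 1149 and 1102 in the silenced cultures. Control 2 was its lowest array, and without it the log2 fold change was -0.01. Psmc1, Psmc3 and Psmc4 had values of 0.06, 0.04 and 0.01, and Psmc5 of -0.03.

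Among the other base genes, the scaffold genes Psmd1 and Psmd2 differed by 0.05 (SE 0.11) and -0.01 (SE 0.08). Psmd1 had 1279, 1550 and 1651 in the controls and 1514, 1569 and 1534 in the silenced cultures, so control 1 alone stood apart. Psmd4, which encodes a ubiquitin receptor, had 666, 570.2 and 654 in the controls and 612, 604 and 614 in the silenced cultures. Its silenced arrays lay within the control range, and the log2 fold change was -0.04 (SE 0.09).

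In the lid, 7 of 8 genes had positive differences, against 45.2% of all genes, the exception being Psmd11 at -0.03 (SE 0.09). The count was the same after quantile normalization or median centring, where 52.1% and 51.8% of all genes were positive. Within replicate numbers 1, 2 and 3 it was 6, 6 and 4 of 8, with medians of 0.05, 0.11 and -0.02. Psmd3, Psmd6, Psmd7, Psmd8 and Psmd13 each turned negative in a fit with a single array left out. Psmd14, the deubiquitinase that cuts the ubiquitin chain off the substrate, had intensities of 417, 345 and 442 in the controls and 386, 506 and 480 in the silenced cultures. Silenced 1 lay within the control range and the other two silenced arrays above it. The log2 fold change was 0.19 (SE 0.13, exact permutation p = 0.3). It was 0.08 without control 2 and 0.30 without silenced 1, where the unadjusted limma p was 0.0439. Psmd12 had 1310, 1391 and 1464 in the controls and 1428, 1521 and 1555 in the silenced cultures, a log2 fold change of 0.11 (SE 0.09) that was positive within all 3 replicate numbers (0.12, 0.13 and 0.09). The other lid genes Psmd3, Psmd6, Psmd7, Psmd8 and Psmd13 lay between 0.02 and 0.08 in log2 fold change. Among them Psmd8 was steady, at 3217 to 3553 over all arrays.

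The cap genes Psmd5, Psmd9 and Psmd10 encode chaperones that help build the base and leave the finished complex. Psmd10, also called gankyrin, had 453, 306 and 399 in the controls and 356, 389 and 391 in the silenced cultures. Both the highest and the lowest of the 6 arrays were controls, and the log2 fold change was -0.01 (SE 0.14). Psmd9 had 249, 253 and 242 in the controls and 255, 231 and 285 in the silenced cultures, with a log2 fold change of 0.05 (SE 0.10). Psmd5 had 1018, 1097 and 1192 in the controls and 1089, 1071 and 1101 in the silenced cultures, with -0.02 (SE 0.09). The groups overlapped for all 3 chaperones.

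Core and cap were then compared between groups by counts and medians, with no test because the genes were chosen with results known. The core had 8 positive and 6 negative differences with a median of 0.01, and the cap 14 and 6 with a median of 0.04; over all genes 45.2% were positive and the median was -0.01. Scaling moved these counts: with arrays centred on their medians, 10 of 14 core and 16 of 20 cap genes were positive, against 51.8% of all genes. Leaving out control 2 left 9 of 20 cap genes positive with a median of -0.01, and leaving out control 1 or silenced 2 took the core medians to -0.04 and -0.0042. Within replicate numbers 1, 2 and 3 the core medians were 0.03, 0.04 and -0.03, and the cap medians 0.05, 0.08 and -0.05. Leaving out single arrays thus turned the sign of both medians.

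Single-gene differences were described by their size, without a test. The median absolute log2 fold change was 0.12 over the core genes and 0.044 over the cap genes, with 0.070 over all genes. Over genes above the median level it was 0.088 in the core, which there leaves out Psma5 and Psma8, and 0.074 over all such genes. Core genes moved the same way within all 3 replicate numbers in 6 of 14 cases, 3 in each direction, and cap genes in 3 of 20, against 25.1% of all genes. The spread within groups was alike in both (median SD 0.107 and 0.098 in log2). The 95% interval lay within 0.5 log2 units either way, a 1.41-fold change, for 20 of 20 cap genes and 12 of 14 core genes, against 91.6% of all genes. The exceptions were Psma1, whose interval reached 0.503, and Psma5, whose interval reached -0.52.

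Over the 6 cultures, the lowest and the highest medians of core and cap were all on control arrays. Each gene was expressed as its deviation from its own mean over the arrays. The core medians were -0.080, -0.00092 and 0.064 on controls 1 to 3 and -0.0078, 0.019 and 0.056 on silenced 1 to 3. The cap medians were -0.021, -0.079 and 0.072 on the controls and -0.010, 0.024 and 0.024 on the silenced arrays. Control 3 was highest for both, whereas control 1 was lowest for the core and control 2 for the cap. The silenced arrays lay inside the range of the controls for core and cap alike.

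**Figure D3:**
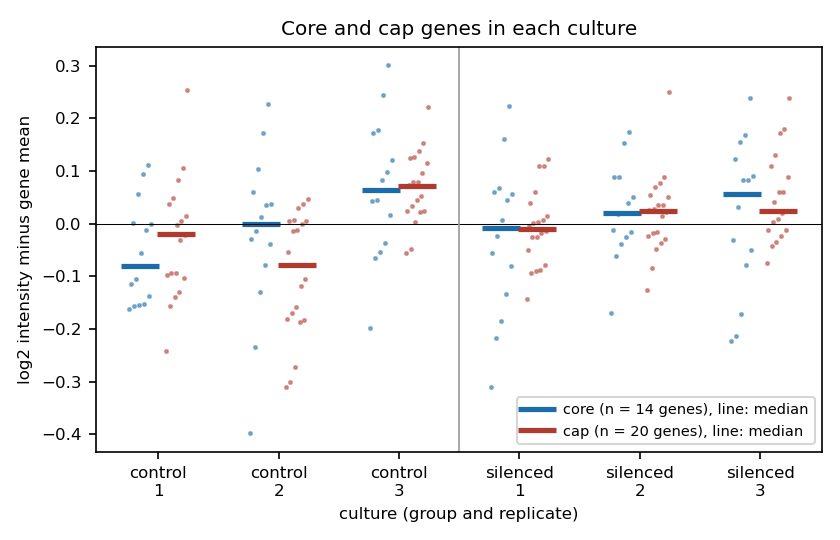
Deviation of each core gene (n = 14, blue) and cap gene (n = 20, red) from its own mean over the 6 arrays, in log2 units (y axis), by culture (x axis); lines are medians. The lowest core median, -0.080, is on control 1 and the lowest cap median, -0.079, on control 2, and both medians are highest on control 3.

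Core and cap medians correlated at a Pearson r of 0.61 and a Spearman rho of 0.83 over the 6 arrays, which share the scaling of each array between core and cap. After the group means were subtracted, r was 0.58 and rho 0.60. Without the 2 arrays farthest from the cap median, controls 2 and 3, r was 0.90 over 4 arrays. Over genes above the median level, which leaves out Psma5 and Psma8, r over the 6 arrays was 0.78. With all 34 genes it was 0.66 after quantile normalization and 0.62 after median centring. The median correlation between pairs of genes was 0.06 within the core, 0.20 within the cap and 0.14 between core and cap, over all 34 genes. Over genes above the median level it was 0.011 within the core, 0.20 within the cap and 0.16 between them, against 0.0026 over all pairs of such genes. These pairwise values are weak over 6 arrays, and no p was computed for them.

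The lowest values of the cap genes fell mostly on controls 1 and 2. Of the 20 cap genes, 10 were lowest on control 2 and 7 on control 1, so that 17 had their lowest value on either; over genes above the median level these 2 arrays held 44.7% of the lowest values. Of the 14 core genes, 4 were lowest on control 1, 2 on control 2, 1 on control 3, 4 on silenced 1 and 3 on silenced 3. Controls 1 and 2 thus held 42.9%, against 38.5% of all genes. Among the 12 core genes above the median level they held 41.7%, near the 44.7% of all genes above that level. Control 3 held the highest value for 8 cap and 5 core genes, 13 of 34, against 14.2% of all genes and 13.9% of genes above the median level. Array weights, which limma estimates from how far each array departs from the fit over all genes, were lowest for control 1 (0.551) and control 2 (0.703) and between 1.01 and 1.52 for the others. Their part in this pattern was not tested.

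Of the 20 cap genes, 4 (Psmc1, Psmc5, Psmd6 and Psmd13) were both lowest on control 2 and highest on control 3, and they are shown for that order. Psmc1 had 1467, 1175 and 1562 in the controls and 1394, 1469 and 1479 in the silenced cultures. Psmc5, another ATPase of the base, had 837, 694 and 879 in the controls and 764, 799 and 784 in the silenced cultures. In both genes control 2 was lowest and control 3 highest, with all silenced arrays between them. Psmd6, a lid gene, had 656, 579 and 711 in the controls and 621, 698 and 684 in the silenced cultures, in the same order.

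**Figure D4:**
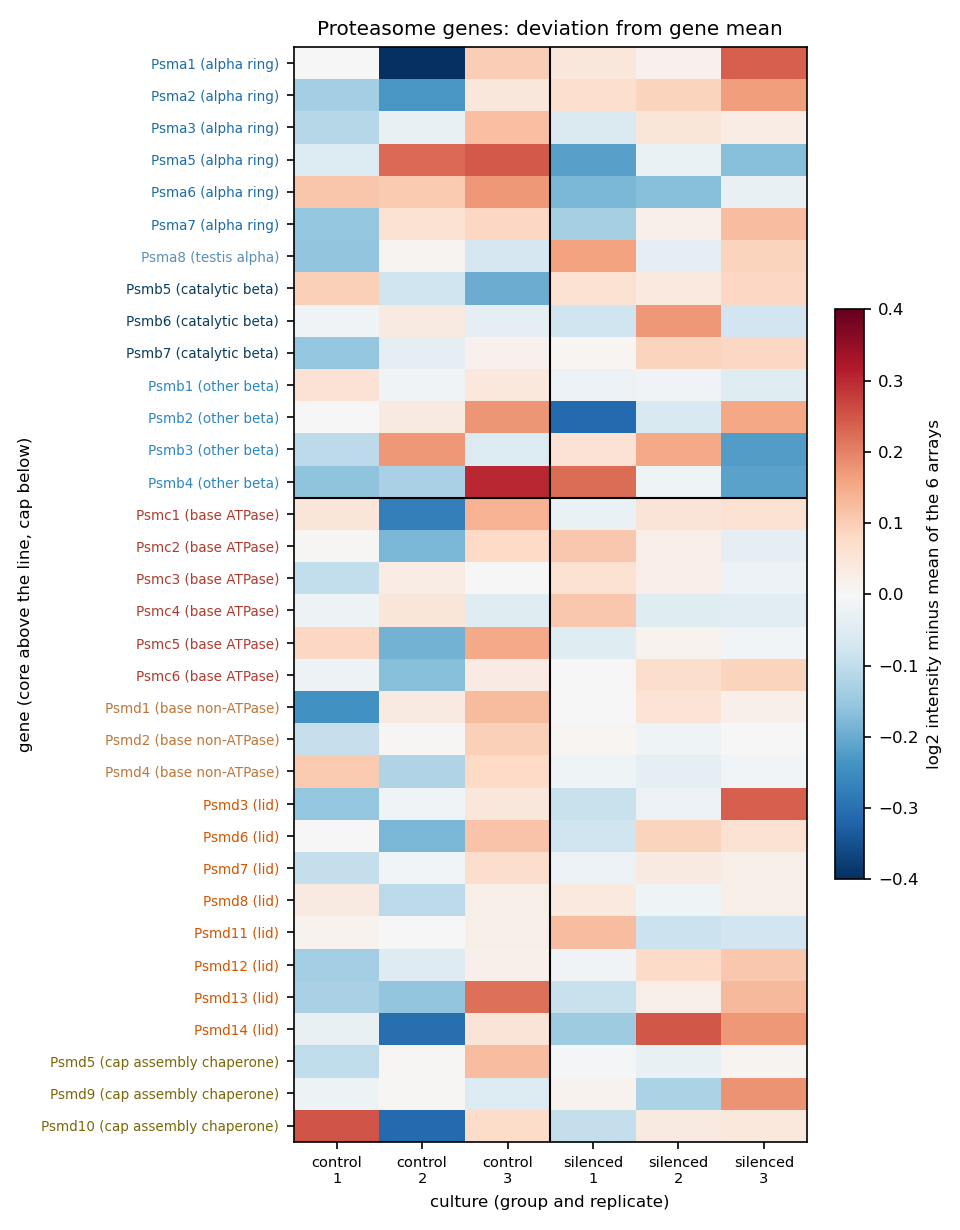
Deviation of each proteasome gene (y axis, core above the line, cap below, with its role) from its own mean, in log2 intensity, on each of the 6 arrays (x axis), as colour from blue (low) to red (high). In the control 2 column 10 of 20 cap genes have their lowest value, and in the control 3 column 13 of 34 genes have their highest.

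The genes closest to the rest were found by correlating each gene over the 6 arrays with the median of the other proteasome genes. Psmd13, a lid gene, came highest (r = 0.96), with 676, 663 and 862 in the controls and 696, 751 and 810 in the silenced cultures. Psma3 (0.94) and Psmd7 (0.83), the lid partner of Psmd14, followed. The lowest were Psmb5 (-0.66) and Psmc4 (-0.62). Psmb5 was lowest on control 3, the array with the highest core and cap medians.

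Other genes of the pathway were read from lists of 47 symbols, of which 38 were measured; the rest were not analysed here. None of the 38 passed the limma adjusted threshold. At an unadjusted limma p under 0.05, 2 were higher (5.26%) and none lower. Over all genes 1.52% were higher and 3.76% passed in either direction. The groups did not overlap for 3 higher and 1 lower of the 38 (10.5%), against 9.01% of all genes. The median log2 fold change over the 38 was -0.02, with 16 positive and 22 negative. Of the 2, Usp14 and Nfyc, the first is a direct partner of the cap.

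Usp14, a deubiquitinase that binds the cap and trims ubiquitin chains, had intensities of 568, 621 and 650 in the controls and 810, 797 and 831 in the silenced cultures. All silenced arrays lay above all controls by a gap wider than the range of either group. The log2 fold change was 0.41 (SE 0.09, 1.33-fold), with an unadjusted limma p of 0.00096, rank 14 among 22180 genes, a limma adjusted p of 1.00 and an exact permutation p of 0.1. It lay between 0.35 and 0.45 when any 1 array was left out. The other measured partners, Sem1, Uchl5, Ecpas, Ube3c and Txnl1, lay between -0.04 and 0.09. Uchl5, the other deubiquitinase of the cap in the list, had 0.09 (SE 0.11).

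Among activators that dock on the core in place of the cap, Psme1 had 759, 565 and 756 in the controls and 833, 822 and 814 in the silenced cultures. The groups did not overlap, and control 2 stood lowest. Its log2 fold change was 0.26 (SE 0.12, unadjusted limma p = 0.0584, exact permutation p = 0.1), 0.12 without control 2, and its unadjusted p was 0.0439 with the replicate block. Psme3, the nuclear activator, named after its values were seen, had 1073, 1149 and 1034 in the controls and 1433, 1228 and 1137 in the silenced cultures, a log2 fold change of 0.22 (SE 0.10, unadjusted limma p = 0.0667, exact permutation p = 0.2) with silenced 3 inside the control range. Psme2, the usual partner of Psme1, had 0.13 (SE 0.11). Its intensities (122 to 167) lay within those of markers of other cell types (45.2 to 175), so they cannot be told from background.

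The inducible catalytic subunits of the immunoproteasome replace Psmb5, Psmb6 and Psmb7 under interferon. Psmb8 (78.5 to 100.0) and Psmb9 (60.5 to 80.1), named after their values were seen, were dim on all arrays and cannot be told from background. Psmb10 had 160, 211 and 215 in the controls and 226, 220 and 188 in the silenced cultures, with a log2 fold change of 0.12 (SE 0.13) that was -0.01 without control 1. Among the chaperones that build the core, Psmg2 had 0.15 (SE 0.12), with 495, 363 and 437 in the controls and 478, 482 and 463 in the silenced cultures. Its control arrays spanned the silenced ones, and its lower cluster gave -0.12. Pomp, which is needed for maturation of the beta rings and was named after its values were seen, had 0.10 (SE 0.09). Its r with the median of the proteasome genes over the cultures was 0.82. A dim gene of the lists, Psmb11 (56.8 to 67.4), reached nearly the same r, 0.81, so this value does not set Pomp apart. The other chaperones of the core had r = -0.70 (Psmg1), 0.08 (Psmg2), 0.28 (Psmg3) and 0.78 (Psmg4). Psmg4 lay near the median gene, at 81.9 to 105.3, and cannot be told from background.

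Among 9 measured regulators of proteasome genes, 8 had a negative difference and 1 a positive one, or 7 and 2 after quantile normalization or median centring. Over all genes 45.2% were positive, or 52.1% and 51.8% after these 2 scalings. Control 1 was the highest array for 5 of the 9, with a median deviation of 0.13. It was highest for 25.8% of all genes and 26.9% of genes above the median level. The median differences of the regulators within replicate numbers 1, 2 and 3 were -0.16, -0.0074 and 0.039, with 5 of 9 positive in the last. Nfyc, a subunit of NF-Y, was the positive one, with 402, 424 and 366 in the controls and 539, 507 and 438 in the silenced cultures. The groups did not overlap, and the log2 fold change was 0.31 (SE 0.11, unadjusted limma p = 0.0148, limma adjusted p = 1.00, exact permutation p = 0.1). The other NF-Y subunits, Nfya and Nfyb, had -0.10 (SE 0.10) and -0.01 (SE 0.09). Nfe2l1, the activator of proteasome genes, had 747, 518 and 449 in the controls and 427, 569 and 490 in the silenced cultures. Control 1 stood far above the other 5 arrays, and the log2 fold change of -0.18 (SE 0.18) was 0.03 without it. Mafg, a small Maf partner of Nfe2l1, had a log2 fold change of -0.12 (SE 0.13) and r = -0.88 with the proteasome genes over the 6 cultures. That r was the lowest among the 38 pathway genes, and Psmb8, dim on all arrays, had -0.76. The intensities of Mafg (129 to 179) lay mostly within those of markers of other cell types (45.2 to 175). Nfe2l1 and Mafg were named after their values were seen.

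Among ubiquitin genes and shuttles, 3 of 9 had positive and 6 negative differences, against 45.2% positive over all genes. Within replicate number 1, 6 of 9 were positive (median 0.15), and within numbers 2 and 3 1 of 9 each (medians -0.096 and -0.096). Sqstm1, a ubiquitin receptor of autophagy, had 3913, 2863 and 2670 in the controls and 3065, 2679 and 2569 in the silenced cultures. Control 1 stood above the other 5 arrays, and the log2 fold change of -0.17 (SE 0.14) was -0.00086 without it. Rad23b, a shuttle that carries ubiquitinated proteins to the proteasome and was named after its values were seen, had 1782, 1884 and 1672 in the controls and 1594, 1612 and 1634 in the silenced cultures. All silenced arrays lay below all controls, at a log2 fold change of -0.14 (SE 0.08, unadjusted limma p = 0.127, exact permutation p = 0.1).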

How the data were processed

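RNA of 3 control and 3 silenced RET cultures was measured on 1 array each. The deposited values are an intensity for each transcript cluster, linear and already normalized by the authors; for background correction, probe summary and normalization no method was given in the sources used here. That the scale is linear follows from their range, 28.1 to 12624. Of 41345 clusters, 40425 had a value on all arrays; 23521 carried 1 symbol, 1814 several and 16010 none. One-symbol clusters, with the brightest per gene, gave 22180 genes. RefSeq tables name the build GRCm38.p6; the build of the array annotation is unstated and its coordinates are not used.

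The log2 of each intensity, with no pseudocount, was fitted over all genes in limma 3.58.1 under R 4.3.3 (functions lmFit and eBayes), two-sided, with Benjamini-Hochberg adjustment and a threshold of 0.05; fold changes are ratios of geometric means, silenced over control. The script was tested on simulated data. Exact permutation tests of single genes stood beside it. The number of arrays limits precision.

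The members and lists were chosen with earlier results of these data known. All members are named; values by array are given for members with an unadjusted p under 0.05 and otherwise for the 2 of largest absolute log2 fold change in a role group, and those of Psma1, Psmb4, Psmc1, Psmc5, Psmd6, Psmd10 and Psmd13 were chosen after they were seen. From each pathway list, members with an unadjusted p under 0.05 or, failing those, the member of largest absolute log2 fold change are named.

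Both groups carry replicate numbers 1 to 3. Deviations from group means correlated at 0.128, 0.211 and 0.143 for arrays of the same number, against at most 0.0558 for other numbers. The deviations of a gene cancel out within a group, so a higher correlation at the same number tends to lower the others. The contrast is therefore weak evidence of pairs. No label ties a number to a shared day, so this pairing comes from the data alone; the replicate block is an alternative. Other alternatives were quantile normalization, median centring, 2 filters on dim genes, other cluster choices, a pseudocount of 16, trend and robust eBayes, array weights, other summaries and memberships, and leaving out each array.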

Additional observations from a re-analysis of the deposited data

How the results depend on the processing

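No member of the 34 and none of the 38 pathway genes passed the limma adjusted threshold of 0.05 under any of the 16 alternatives that gave a fit. Of 748 values of single genes across settings, 697 kept their sign and 51 turned it; 14 of the 34 members never turned, 13 turned only when an array was left out, and the largest absolute log2 fold change among members that turned was 0.083. Angpt2 kept its log2 fold change of -1.33 with the replicate block but passed the threshold (adjusted p = 0.046), and lay between -1.61 and -1.14 with an array left out. The replicate block changed no other adjusted call of the genes named here, but took Psme1 from an unadjusted limma p of 0.0584 to 0.0439. The count of members higher at an unadjusted limma p under 0.05 was 0 with either filter on dim genes and with array weights, and 0 to 1 with an array left out. The count lower was 1 with genes above the median level and with the lowest-mean cluster, and 0 to 2 with an array left out. Pathway genes higher, 2 in the fit reported, numbered 3 with the replicate block or median centring, 4 with array weights and 1 to 4 with an array left out, and pathway genes lower 0 to 1. With an array left out, the core median log2 fold change lay between -0.040 and 0.076, core minus cap between -0.056 and 0.055, and the correlation of core with cap between 0.58 and 0.85. The signs of small differences turned under scaling. With quantile normalization the log2 fold changes were 0.016 for Psmb3, 0.012 for Psmb4 and 0.0020 for Psmb9. With median centring they were 0.0073 for Psmb3, 0.011 for Psmb4, 0.011 for Psmd2 and 0.0049 for Psmd10. With array weights they were -0.016 for Psma3, -0.032 for Psma7, 0.022 for Psmb3 and -0.020 for Psmd13, and the lowest-mean cluster gave -0.12 for Psmg2. With an array left out, signs turned for core genes within these ranges of log2 fold change: Psma3 -0.037 to 0.080, Psma7 -0.069 to 0.075, Psmb3 -0.087 to 0.10, Psmb4 -0.12 to 0.14 and Psmb6 -0.075 to 0.053. In the base they were Psmc1 -0.065 to 0.14, Psmc2 -0.0097 to 0.12, Psmc4 -0.038 to 0.040, Psmc5 -0.13 to 0.037, Psmd1 -0.056 to 0.13 and Psmd2 -0.053 to 0.041. In the lid they were Psmd3 -0.015 to 0.15, Psmd6 -0.033 to 0.12, Psmd7 -0.018 to 0.065, Psmd8 -0.015 to 0.055, Psmd11 -0.093 to 0.011 and Psmd13 -0.024 to 0.17. The chaperone genes gave Psmd5 -0.073 to 0.041, Psmd9 -0.033 to 0.12 and Psmd10 -0.17 to 0.11, and the pathway genes Psmb9 -0.091 to 0.081, Psmb10 -0.015 to 0.21 and Nfe2l1 -0.34 to 0.029. The causes were not tested. The data have 3 arrays per group, 1 shRNA against Angpt2 and no detection calls, and Psma5, Psma8 and Psmb3 lie near or below the median gene, where a change in RNA cannot be read from intensity.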
